A study of Mus musculus with 6 samples.

Results

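The 40 genes described here encode the extracellular and membrane side of Wnt signalling. They were taken by symbol from the 36528 gene models of the deposited files and comprise 19 Wnt ligands, 10 frizzled receptors, 2 LRP co-receptors, 3 ROR and RYK receptors, 3 R-spondin receptors and 3 feedback genes. All 40 were in the files and 34 of them had enough reads to be tested. PolyA RNA of primary mouse melanocytes, the pigment-producing cells, from skin was sequenced in 6 libraries, 3 labelled BAP1 KO (knockout of the deubiquitinase gene Bap1) and 3 labelled WT (wild type). The labels give neither the strain, age or sex of the mice, nor the allele, the Cre driver or the culture conditions, and do not say whether the libraries came from separate cultures or animals. P-values therefore rest on the spread among these libraries alone, and that may be technical.

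Wnt ligands are secreted, lipid-modified proteins that bind frizzled receptors. With LRP5 or LRP6 as co-receptor they stop the destruction of beta-catenin, which then acts with TCF/LEF factors in the nucleus, whereas ROR and RYK receptors carry beta-catenin-independent signals. R-spondins bound to LGR4, LGR5 or LGR6 shield frizzleds from the ubiquitin ligases RNF43 and ZNRF3, and AXIN2 belongs to the complex that destroys beta-catenin. Rnf43, Znrf3 and Axin2 are themselves switched on by the pathway, which makes them negative feedback genes. Wnt signals drive melanocyte specification from the neural crest, partly through Mitf, and in the skin epidermal keratinocytes are a known source of Wnt ligands.

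Libraries held 33987690 to 43773769 uniquely aligned reads. Bap1, the targeted gene, was not lower under the knockout label. It stood at 73.6, 77.3 and 72.4 CPM (read counts scaled to library size) in the BAP1 KO-labelled libraries and at 55.7, 55.6 and 55.8 CPM in the WT-labelled ones, so every direction below rests on the labels. Its log2 fold change was 0.42 (SE 0.0420, edgeR adjusted p = 3.88e-06). Reads were counted over the whole gene model, which the loss of a piece of it need not lower. Why Bap1 was higher was not tested. Melanocyte markers (10 of 10 tested higher) summed to 63289 to 64111 CPM with the BAP1 KO label and 6590.4 to 6687 CPM with the WT label. Keratinocyte markers (18 of 18 tested lower) summed to 714 to 762 CPM in the BAP1 KO-labelled libraries and 12587 to 12814 CPM in the WT-labelled ones. Fibroblast markers (13 of 14 tested lower) summed to 1527 to 1673 CPM with the BAP1 KO label and 11165 to 11879 CPM with the WT label. Immune markers went both ways (6 higher and 3 lower of 9 tested, Lyz2 higher and Cd14 lower among them) and summed to 233 to 240.4 CPM with the BAP1 KO label and 69.1 to 76.1 CPM with the WT label. Schwann cell markers (4 higher, 3 lower and 1 not called of 8 tested) summed to 1499 to 1563 CPM with the BAP1 KO label and 489 to 553 CPM with the WT label. Endothelial and mural markers (2 higher and 6 lower of 8 tested, Vwf higher and Acta2 lower among them) summed to 104 to 113 CPM with the BAP1 KO label and 349.5 to 378 CPM with the WT label. Of all these markers 1, the T cell gene Cd3e, had 0 reads in all 3 libraries of a label, BAP1 KO. The sums of all 6 lists differed between the labels without overlap, and their part in the Wnt results was not tested. In such bulk RNA, fewer cells of a type and less RNA per cell cannot be told apart.

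Most Wnt genes were lower with the BAP1 KO label, with a median log2 fold change of -2.78 for the ligands tested and -0.18 for the frizzled receptors. Of the 34 genes tested, edgeR called 26 lower and 7 higher (Benjamini-Hochberg adjusted p under 0.05 over all 17121 genes tested), while 81.5% of all genes tested were called in either direction, 42.1% lower and 39.4% higher. Of the 34, 18 were called at least 2-fold lower and 3 at least 2-fold higher, where 22.7% and 13.9% of all genes tested were. At least 8-fold lower were 11 of the 34, against 8.88% of all genes tested. The median log2 fold change of the 34, BAP1 KO over WT, was -1.32, and that of all genes tested -0.03. Genes read almost only in 1 group pass the count filter through that group, so these counts and medians describe the genes and do not set them apart. For each of the 34 genes the 3 BAP1 KO-labelled libraries lay wholly above or wholly below the 3 labelled WT, which was so for 82.7% of all genes tested.

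**Figure D1:**
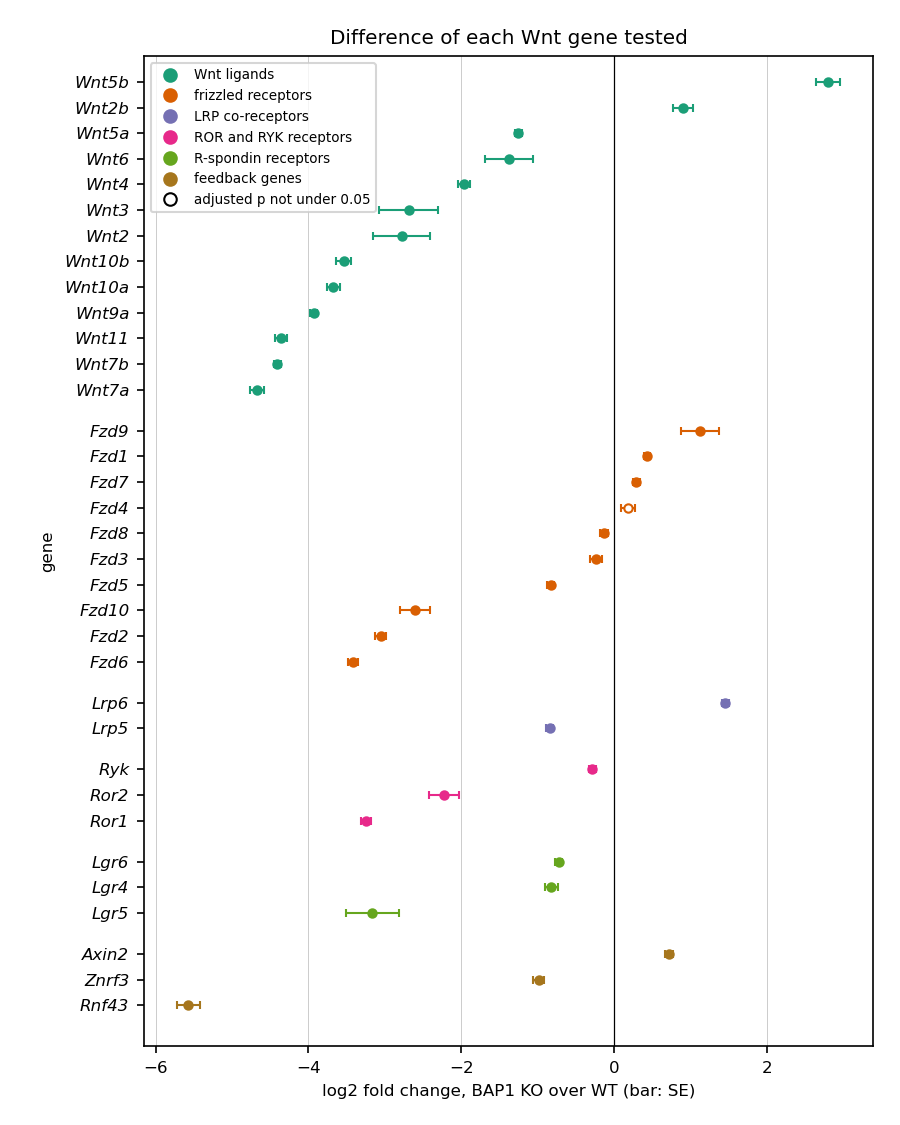
Log2 fold change (x axis, BAP1 KO-labelled libraries over the WT-labelled ones) of the 34 Wnt genes tested, one row per gene and one colour per class, with bars for the standard error. Ligands spread from -4.68 (Wnt7a) to 2.80 (Wnt5b), and the open circle marks Fzd4, whose adjusted p was 0.0835.

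Of the 19 ligand genes, 11 were lower, 2 were higher and 6 had too few reads to be tested. In the same libraries the keratinocyte markers tested had a median log2 fold change of -4.13, the fibroblast markers -2.82 and the melanocyte markers 3.06. Wnt7b (gene ID 22422, chr15:85535437-85581821 on GRCm38), a ligand of epithelia, had the highest RPKM of the ligands (reads per length and library size, normalized by the authors) in both groups. It was read at 29.1, 27.8 and 28.0 CPM in the BAP1 KO-labelled libraries, against 594, 577 and 629.6 CPM in the WT-labelled ones. The groups were far apart, at 28.3 ± 0.712 CPM with the BAP1 KO label and 599.9 ± 27.1 CPM with the WT label (mean ± SD, n = 3 each), which is 21.2-fold lower (log2 -4.41, SE 0.0488, edgeR adjusted p = 1.54e-13). Its close paralogue Wnt7a (gene ID 22421, chr6:91363981-91411353) stood at 1.54, 1.90 and 2.15 CPM with the BAP1 KO label and at 46.7, 46.7 and 49.3 CPM with the WT label. Wnt7a was 25.6-fold lower, at log2 -4.68 (SE 0.0886, edgeR adjusted p = 3.93e-12). Both fell to a small remainder, and no library labelled BAP1 KO came near one labelled WT.

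Wnt11, Wnt9a, Wnt10a and Wnt10b were lower by more than 8-fold each. Wnt11 (gene ID 22411, chr7:98835084-98854747), best known for beta-catenin-independent signalling, was read at 2.96, 3.87 and 3.60 CPM in the BAP1 KO-labelled libraries and 70.2, 69.4 and 75.6 CPM in the WT-labelled ones. That is 20.5-fold lower (log2 -4.36, SE 0.0824, edgeR adjusted p = 3.85e-12). Of its annotated exon bases, 8.80% overlap another gene, Gm8398, and the library kit does not mark strand, so their reads cannot be told apart there. The same holds for 6.6% of the exon bases of Wnt7b (AU022754) and 4.6% of those of Wnt5a (Gm2670). Wnt9a (gene ID 216795, chr11:59306849-59333552), a ligand with roles in joints and skeleton, had 10.5, 9.82 and 10.03 CPM with the BAP1 KO label and 149.97, 155 and 158 CPM with the WT label, a 15.3-fold difference (log2 -3.93, SE 0.0492, edgeR adjusted p = 2.74e-13). Wnt10a (gene ID 22409), needed for hair and tooth formation, had 2.21, 2.63 and 2.68 CPM in the BAP1 KO-labelled libraries, against 32.2, 30.1 and 33.7 CPM in the WT-labelled ones. Its paralogue Wnt10b (gene ID 22410), an activator of beta-catenin signalling in hair follicles, had 1.08, 0.938 and 1.003 CPM with the BAP1 KO label and 11.7, 11.99 and 11.3 CPM with the WT label. Wnt10a was 12.8-fold and Wnt10b 11.6-fold lower, with edgeR adjusted p = 1.90e-11 and 7.60e-11. In all 4 genes the 3 libraries of a label lay close together and the labels far apart.

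Wnt4 and Wnt5a fell less. Wnt4 (gene ID 22417), a ligand of kidney, gonad and epidermis, was read at 6.01, 5.48 and 5.10 CPM in the BAP1 KO-labelled libraries and 21.0, 21.4 and 22.5 CPM in the WT-labelled ones, which is 3.91-fold lower (log2 -1.97, SE 0.0747, edgeR adjusted p = 1.03e-09). Wnt5a (gene ID 22418, chr14:28504543-28527448), the main ligand of beta-catenin-independent signalling and tied to invasive melanoma, was read at 38.6, 38.1 and 39.2 CPM with the BAP1 KO label and at 90.9, 96.5 and 89.0 CPM with the WT label. It was 2.38-fold lower (log2 -1.25, SE 0.0457, edgeR adjusted p = 7.25e-10). The 3 libraries of each label lay close together, and neither gene overlapped between labels.

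Wnt5b and Wnt2b were the only ligands tested that were higher with the BAP1 KO label. Wnt5b (gene ID 22419, chr6:119432531-119544824), the paralogue of Wnt5a, was read at 3.77, 4.24 and 3.79 CPM in the BAP1 KO-labelled libraries and at 0.604, 0.638 and 0.461 CPM in the WT-labelled ones. It was 6.96-fold higher (log2 2.80, SE 0.154, edgeR adjusted p = 2.37e-08), in each library labelled BAP1 KO over each labelled WT. The 2 paralogues therefore went opposite ways. Per length, on the authors' normalized RPKM, the ratio of Wnt5b to Wnt5a was 0.197 to 0.227 in the BAP1 KO-labelled libraries and 0.0106 to 0.0136 in the WT-labelled ones. Wnt2b, an activator of beta-catenin signalling, stood at 2.63 ± 0.177 CPM with the BAP1 KO label and 1.40 ± 0.152 CPM with the WT label (SD, n = 3 each), with a log2 fold change of 0.90 (SE 0.134, edgeR adjusted p = 9.51e-05).

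Wnt2, Wnt3 and Wnt6 were called lower but stayed under 1 CPM in every library, with log2 fold changes of -2.78 (SE 0.374), -2.69 (SE 0.387) and -1.38 (SE 0.316). Wnt1, Wnt3a, Wnt8a, Wnt8b, Wnt9b and Wnt16 did not pass the count filter. Over the 3 BAP1 KO-labelled libraries they had 0, 0, 1, 0, 1 and 6 reads in that order, and over the 3 labelled WT 12, 3, 6, 5, 6 and 48 reads. A count of 0 over a group allows up to 3 reads, which is 0.0254 CPM in the BAP1 KO-labelled libraries and covers counting error only. These ligands were therefore at or near the limit of detection with the BAP1 KO label. With no count filter, edgeR called Wnt16 (log2 -2.91, adjusted p = 2.14e-05) and Wnt1 (adjusted p = 0.00362) lower and not the other 4.

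**Figure D2:**
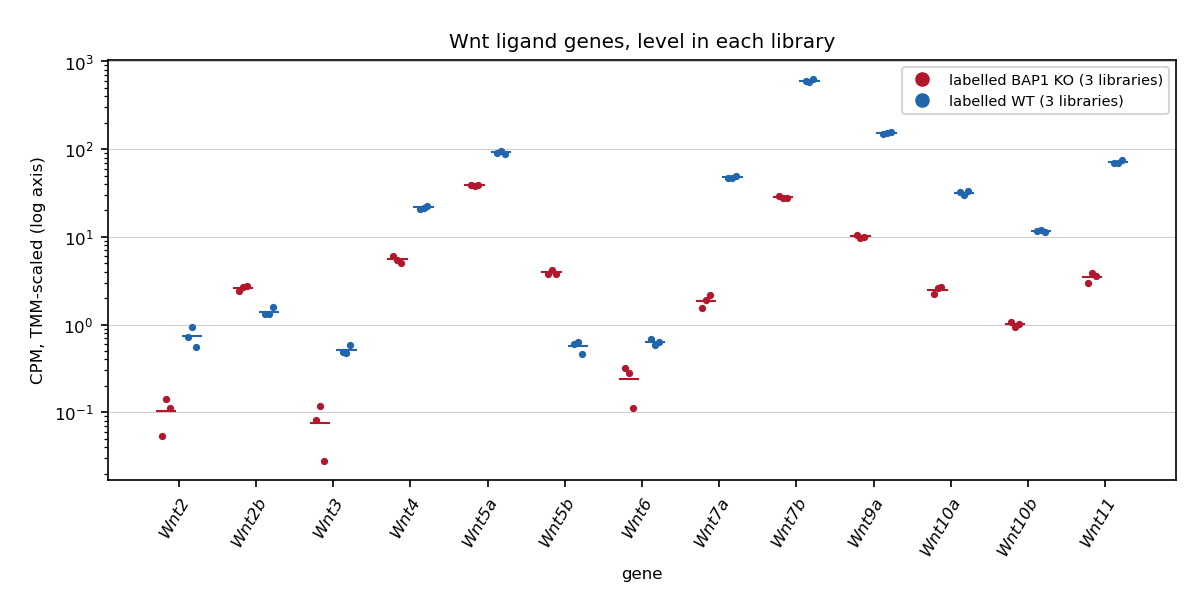
Level of the 13 ligand genes tested in each of the 6 libraries (points, TMM-scaled CPM on a log axis), with the group mean as a bar, BAP1 KO-labelled libraries left of the WT-labelled ones. Wnt7b stands at 27.8 to 29.1 CPM with the BAP1 KO label and 577 to 629.6 CPM with the WT label, and Wnt5b and Wnt2b are the genes with the higher points on the left.

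The make-up of the ligand pool also differed. Summed over all 19 ligands, the authors' normalized RPKM was 20.60, 20.57 and 20.55 in the BAP1 KO-labelled libraries, against 237, 229.5 and 252 in the WT-labelled ones. The sum with the WT label was 11.6 times that with the BAP1 KO label. Wnt7b made up 29.3% ± 0.807 of it in the BAP1 KO-labelled libraries and 52.4% ± 0.693 in the WT-labelled ones. Wnt5a made up 25.7% ± 0.381 of it with the BAP1 KO label and 5.18% ± 0.371 with the WT label, and Wnt9a 13.6% ± 0.465 with the BAP1 KO label and 17.5% ± 0.431 with the WT label. Under the BAP1 KO label the order was Wnt7b, Wnt5a and Wnt9a, each with its lowest library above the highest of the next, and then Wnt4, Wnt10a, Wnt5b and Wnt11, where the RPKM ranges of neighbours overlapped. Under the WT label it was Wnt7b, Wnt9a and Wnt11, then Wnt10a, Wnt7a and Wnt5a. The RPKM of Wnt10a (13.9 to 16.1) and Wnt7a (13.4 to 14.5) overlapped in range over the 3 WT-labelled libraries, but Wnt10a was the higher of the pair within each.

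**Figure D3:**
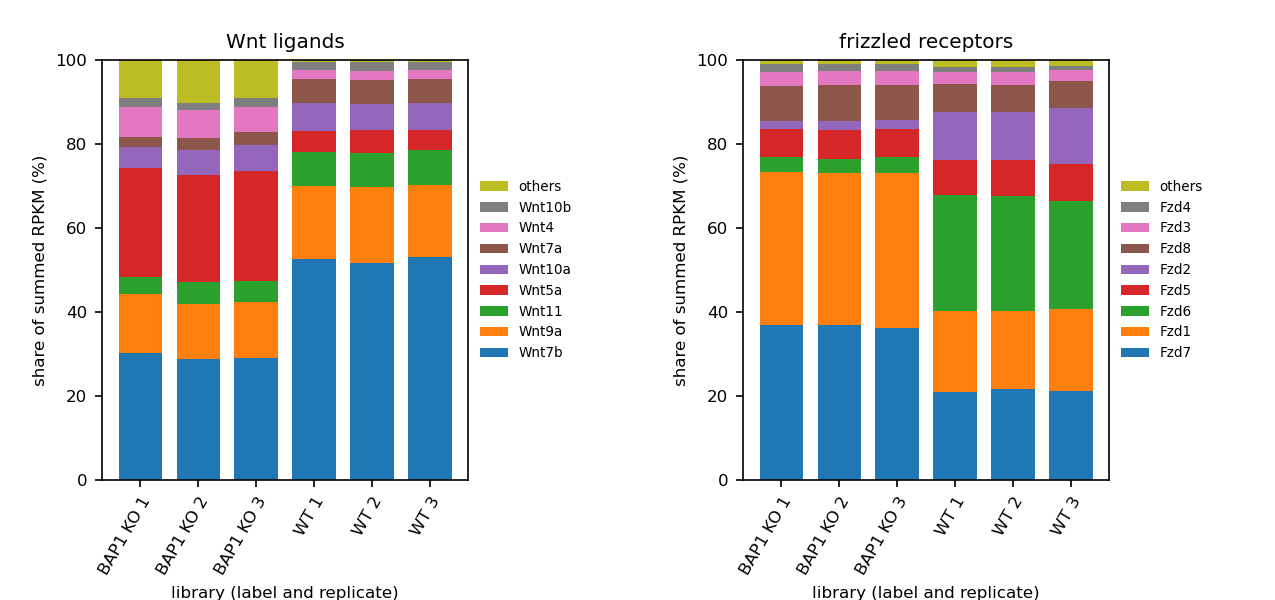
Share (%) of the summed normalized RPKM of the 19 ligands (left) and the 10 frizzled receptors (right) that each gene held in each library, with the least abundant genes pooled as others. Wnt5a takes 25.7% of the ligand sum with the BAP1 KO label and 5.18% with the WT label, and Fzd6 takes 3.54% of the frizzled sum with the BAP1 KO label and 26.8% with the WT label.

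Several of these genes share more than their family. Some mouse Wnt genes are neighbours, and 4 such pairs lay within 100000 bases of each other with no RefSeq gene between them. The spans of Wnt9b and Wnt3 overlapped (a gap of -1098 bases), but 0% of the annotated exon bases of either overlap another gene. Wnt10a and Wnt6 on chromosome 1 are 6696 bases apart and were both lower, at -3.67 and -1.38. In the pairs Wnt9a and Wnt3a, Wnt3 and Wnt9b (both chromosome 11) and Wnt10b and Wnt1 (chromosome 15), the first was lower at -3.93, -2.69 and -3.54, and the second had too few reads to be tested. RefSeq promoters on GRCm38.p6 were at hand for 28 of the 40 genes. Their 250 bases before the start were rich in G and C. Taking for each gene the start with the highest share, the median was 71.2%, against 52.8% over the 27025 genes in the table and 60.4% over its tested genes. A search on both strands for CTTTGAT or CTTTGAA, the letters that TCF/LEF factors prefer, found a match in 2 of the 28 (7.14%), Wnt11 and Wnt5b. The share was 8.63% over all genes in the table and 6.62% over its tested genes. A match is a description of the letters and does not show binding. The 2 promoters are given because their genes went opposite ways, Wnt11 at -4.36 and Wnt5b at 2.80. The capitals mark the match, 51 bases before the start in Wnt11 (read as CTTTGAT on the other strand) and 71 bases before it in Wnt5b. The Wnt5b sequence belongs to 1 of its 3 starts in the table and the Wnt11 sequence to 1 of 2, and the other starts had no match. The Wnt5b start is an internal one, the farthest downstream of the 3 within the span of the gene (chr6:119432531-119544824).
Wnt11, chr7:98834862-98835111, plus strand: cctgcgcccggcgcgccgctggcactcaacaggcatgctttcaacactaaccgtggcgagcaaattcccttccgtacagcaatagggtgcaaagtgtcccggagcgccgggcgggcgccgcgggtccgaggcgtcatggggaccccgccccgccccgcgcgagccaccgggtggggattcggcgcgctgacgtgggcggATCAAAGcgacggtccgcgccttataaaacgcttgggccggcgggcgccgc
Wnt5b, chr6:119449387-119449636, minus strand: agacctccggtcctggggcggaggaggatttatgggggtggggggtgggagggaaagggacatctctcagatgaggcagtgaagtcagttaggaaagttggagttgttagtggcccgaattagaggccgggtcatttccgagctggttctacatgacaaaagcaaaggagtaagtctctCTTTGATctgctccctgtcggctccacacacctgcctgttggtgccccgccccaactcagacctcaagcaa

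The frizzled receptors, which bind the ligands, went both ways. Of the 10, all were tested, 6 were lower, 3 of them by more than 2-fold (Fzd2, Fzd6 and Fzd10), 3 were higher and 1 was not called, with a median of -0.18. Fzd6 (gene ID 14368, chr15:39006149-39038192), a receptor of planar cell polarity in hair and epidermis, was read at 9.92, 9.33 and 10.4 CPM in the BAP1 KO-labelled libraries and at 108, 109.6 and 99.4 CPM in the WT-labelled ones. It was 10.7-fold lower (log2 -3.42, SE 0.0613, edgeR adjusted p = 2.58e-12). Fzd2 (gene ID 57265, chr11:102604431-102608058), a receptor for Wnt5a among others, was read at 4.53, 4.95 and 5.02 CPM with the BAP1 KO label and at 38.0, 39.3 and 43.3 CPM with the WT label, an 8.32-fold difference (log2 -3.06, SE 0.0753, edgeR adjusted p = 2.84e-11). Fzd10 (gene ID 93897) was scarce, at 0.754, 0.422 and 0.808 CPM in the BAP1 KO-labelled libraries and 3.91, 4.41 and 3.59 CPM in the WT-labelled ones (log2 -2.60, SE 0.195, edgeR adjusted p = 3.38e-07). None of the 3 genes overlapped between labels.

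Fzd1 and Fzd7, the frizzleds with the highest RPKM with the BAP1 KO label, were slightly higher there. Fzd1 stood at 104 ± 0.517 CPM in the BAP1 KO-labelled libraries and 77.6 ± 0.589 CPM in the WT-labelled ones, and Fzd7 at 115 ± 2.03 CPM with the BAP1 KO label and 93.97 ± 3.46 CPM with the WT label (SD, n = 3 each). Their log2 fold changes were 0.43 (SE 0.0368) and 0.29 (SE 0.0417), with edgeR adjusted p = 1.05e-06 and 7.02e-05. Fzd9 was 2.17-fold higher but under 1 CPM in every library. Fzd5, an epithelial and eye receptor, was 1.78-fold lower, at 30.9 ± 0.882 CPM with the BAP1 KO label and 54.9 ± 1.01 CPM with the WT label, and 17.8% of its exon bases overlap Gm38058. The small differences of Fzd3 (log2 -0.24, SE 0.0833, edgeR adjusted p = 0.0214) and Fzd8 (log2 -0.13, SE 0.0551, adjusted p = 0.0477) were called, and that of Fzd4 was not (log2 0.18, SE 0.0910, adjusted p = 0.0835). Leaving out 1 library ended the call of Fzd8 whichever of the 6 it was (adjusted p 0.0510 to 0.211), and that of Fzd3 for each but WT library 3 (0.0573 to 0.0893). Without WT library 1, Fzd4 was called (adjusted p = 0.0408).

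The frizzled sum differed less than the ligand sum. It was 61.5, 62.1 and 61.02 normalized RPKM in the BAP1 KO-labelled libraries, against 85.1, 85.5 and 84.5 in the WT-labelled ones, 1.38 times as much with the WT label. Fzd7 and Fzd1 made up 36.6% ± 0.361 and 36.6% ± 0.397 of it with the BAP1 KO label, where they overlapped, and 21.2% ± 0.397 and 19.3% ± 0.470 with the WT label. Fzd6 led with the WT label with 26.8% ± 0.952 and held 3.54% ± 0.228 with the BAP1 KO label. The order at the top of the family thus differed between labels, and in each group Fzd6 stood apart from Fzd7 in all 3 libraries.

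The 2 LRP co-receptors, which pass the ligand signal to beta-catenin, went opposite ways. Lrp6 (gene ID 16974, chr6:134446476-134566913) was read at 476, 472 and 467 CPM in the BAP1 KO-labelled libraries and at 175, 178 and 162 CPM in the WT-labelled ones. It was 2.74-fold higher (log2 1.46, SE 0.0424, edgeR adjusted p = 1.12e-10), with no overlap. Lrp5 (gene ID 16973) was read at 120.5, 123 and 111 CPM with the BAP1 KO label and at 209.8, 205 and 221 CPM with the WT label, 1.79-fold lower (log2 -0.84, SE 0.0491, edgeR adjusted p = 3.88e-08). Per length, the ratio of Lrp6 to Lrp5 was 2.12 to 2.33 in the BAP1 KO-labelled libraries and 0.405 to 0.481 in the WT-labelled ones. Lrp6 was therefore the main co-receptor transcript with the BAP1 KO label and Lrp5 with the WT label. Their sum was 68.98 ± 1.64 normalized RPKM with the BAP1 KO label and 54.8 ± 1.46 with the WT label.

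ROR1, ROR2 and RYK are single-pass receptors for Wnt ligands outside the beta-catenin branch, ROR1 and ROR2 above all for WNT5A, and all 3 of their genes were lower. Ror1 (gene ID 26563, chr4:100095791-100444806) was read at 7.63, 8.93 and 8.39 CPM in the BAP1 KO-labelled libraries and at 79.8, 83.4 and 74.1 CPM in the WT-labelled ones, a 9.49-fold difference (log2 -3.25, SE 0.0702, edgeR adjusted p = 1.02e-11). Ror2 (gene ID 26564) was read at 0.431, 0.352 and 0.279 CPM with the BAP1 KO label and at 1.67, 1.81 and 1.55 CPM with the WT label (log2 -2.23, SE 0.200, edgeR adjusted p = 1.55e-06). Ror2 was scarce in both groups and lower in each library labelled BAP1 KO. Ryk changed little, at 116 ± 2.57 CPM in the BAP1 KO-labelled libraries and 141 ± 5.49 CPM in the WT-labelled ones (log2 -0.28, SE 0.0422, edgeR adjusted p = 9.48e-05). Per length Ryk made up 97.1% ± 0.115 of the sum of the 3 genes with the BAP1 KO label and 81.9% ± 0.395 with the WT label.

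The R-spondin receptors were lower as well, 2 of them modestly. Lgr4 and Lgr6 stood at 24.1 ± 1.11 and 41.2 ± 0.874 CPM in the BAP1 KO-labelled libraries and 42.5 ± 5.51 and 68.3 ± 2.24 CPM in the WT-labelled ones. Their log2 fold changes were -0.82 (SE 0.0874) and -0.73 (SE 0.0444), with edgeR adjusted p = 6.48e-06 and 5.83e-08. Per length the ratio of Lgr6 to Lgr4 overlapped between labels, at 0.984 to 1.12 in the BAP1 KO-labelled libraries and 0.851 to 1.18 in the WT-labelled ones. Lgr5 (gene ID 14160), a stem cell marker of hair follicle and gut, was read at 0.0269, 0.328 and 0.223 CPM with the BAP1 KO label and at 1.73, 1.89 and 1.79 CPM with the WT label. It was lower (log2 -3.16, SE 0.349, edgeR adjusted p = 8.74e-06), and its 3 BAP1 KO-labelled libraries held 1, 14 and 8 reads. Without BAP1 KO library 2, which held the 14 reads, its log2 fold change was -3.82 (edgeR adjusted p = 3.05e-05), and without library 1 it was -2.66 (adjusted p = 5.38e-06).

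**Figure D4:**
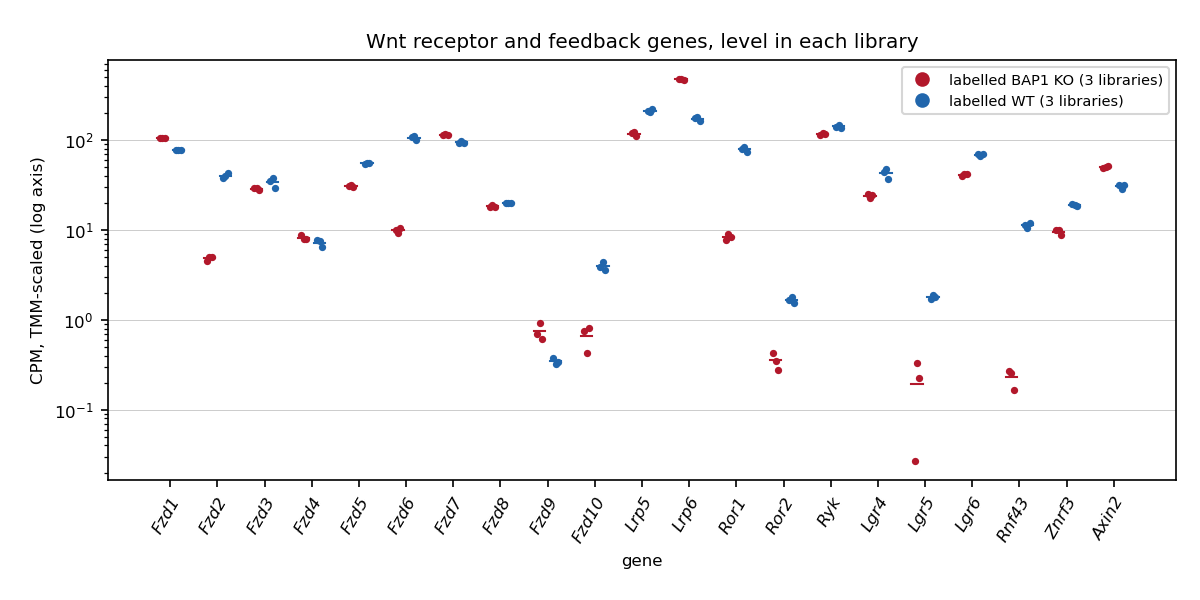
Level of the 21 receptor and feedback genes in each of the 6 libraries (points, TMM-scaled CPM on a log axis), with the group mean as a bar, BAP1 KO-labelled libraries left of the WT-labelled ones. Lrp6 stands at 467 to 476 CPM with the BAP1 KO label and 162 to 178 CPM with the WT label, and Rnf43 at 0.167 to 0.269 CPM there against 10.6 to 11.9 CPM with the WT label is the widest gap.

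The 3 feedback genes, all known targets of beta-catenin, did not move together. Rnf43 (gene ID 207742, chr11:87663087-87735539), the ligase that removes frizzleds from the cell surface, was read at 0.269, 0.258 and 0.167 CPM in the BAP1 KO-labelled libraries and at 11.2, 10.6 and 11.9 CPM in the WT-labelled ones. It was 47.5-fold lower (log2 -5.57, SE 0.147, edgeR adjusted p = 4.85e-11), the lowest log2 fold change of the 34 genes tested. Its paralogue Znrf3 was lower by 1.98-fold, at 9.53 ± 0.672 CPM with the BAP1 KO label and 18.9 ± 0.480 CPM with the WT label (SD, n = 3 each), at log2 -0.99 (SE 0.0685, edgeR adjusted p = 1.73e-07). Axin2 (gene ID 12006, chr11:108917828-108950783), often used as a readout of beta-catenin signalling, was higher. It was read at 49.3, 50.7 and 51.5 CPM in the BAP1 KO-labelled libraries and at 31.3, 28.9 and 31.8 CPM in the WT-labelled ones, a 1.65-fold difference (log2 0.72, SE 0.0505, edgeR adjusted p = 1.89e-07). Per length the ratio of Axin2 to Rnf43 was 164 to 276 in the BAP1 KO-labelled libraries and 2.40 to 2.50 in the WT-labelled ones. Those with the BAP1 KO label rest on 10, 11 and 6 Rnf43 reads and are therefore imprecise.

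The promoters of Axin2 and Rnf43 are given because these 2 feedback genes lay farthest apart within their class. Neither holds CTTTGAT or CTTTGAA in these 250 bases, which says only that the letters are not in this window, and no letters are therefore in capitals. They differ in composition, with 69.2% G and C in Axin2 and 44.4% in the Rnf43 window, the first of its 2 starts in the table (45.2% at the other). The Axin2 window lies inside the span of the gene (chr11:108917828-108950783), so it precedes an internal start and not the first base of that span.
Axin2, chr11:108920099-108920348, plus strand: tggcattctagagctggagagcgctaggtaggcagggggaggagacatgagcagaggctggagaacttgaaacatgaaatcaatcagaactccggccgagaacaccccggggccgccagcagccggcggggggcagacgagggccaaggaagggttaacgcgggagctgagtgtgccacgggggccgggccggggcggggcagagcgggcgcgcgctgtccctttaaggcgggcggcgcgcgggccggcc
Rnf43, chr11:87662837-87663086, plus strand: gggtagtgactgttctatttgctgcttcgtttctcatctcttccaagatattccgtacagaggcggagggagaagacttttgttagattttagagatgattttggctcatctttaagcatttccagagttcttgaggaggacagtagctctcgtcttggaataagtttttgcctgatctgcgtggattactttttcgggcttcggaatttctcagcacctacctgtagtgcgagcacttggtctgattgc

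Other genes of the pathway went both ways in like numbers. Of 76 genes on 5 lists, 70 were tested, and 31 were higher, 34 lower and 5 not called, with a median log2 fold change of -0.14. Called genes were 92.9% of the 70, and 81.5% of all genes tested. Among 9 tested genes of ligand secretion and extracellular helpers, 4 were higher and 5 lower. Reck, a membrane-anchored partner that recognises WNT7A and WNT7B, was 15.7-fold higher, at 121 ± 1.92 CPM with the BAP1 KO label and 7.70 ± 0.425 CPM with the WT label, while both of those ligands were lower. Ptk7, a polarity co-receptor, was 7.14-fold and the glypican Gpc4 3.47-fold lower. The 4 R-spondin genes were under the count filter.

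The genes that control beta-catenin stability all differed by less than 2-fold. Of 16 genes of the destruction complex and dishevelled, 8 were higher, 6 lower and 2 not called. Called genes were 87.5% of the 16, against 81.5% of all genes tested. Btrc, which marks beta-catenin for degradation, was 1.75-fold and Dvl2 1.69-fold higher, and the kinase gene Csnk1e was 1.56-fold lower. Of Dvl2's exon bases, 19.7% overlap Acadvl. Of 14 TCF/LEF factors and co-factors, 7 were higher and 7 lower (100% called). The co-activator Pygo1 was 7.36-fold and Tle6 1.98-fold higher. Lef1 was lower, at 0.523 ± 0.0673 CPM with the BAP1 KO label and 2.02 ± 0.510 CPM with the WT label. Of its exon bases, 13.8% overlap Gm43352.

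Other known beta-catenin targets went both ways. Of 12 tested, 3 were higher, 7 lower and 2 not called, with a median of -0.64. Called genes were 83.3% of the 12, near the 81.5% of all genes tested. Ccnd1 (cyclin D1) was 10.3-fold lower, at 120 ± 3.19 CPM in the BAP1 KO-labelled libraries and 1234 ± 31.4 CPM in the WT-labelled ones, with 23.4% of its exon bases overlapping LTO1. Myc was 7.30-fold lower, and the adhesion gene Nrcam 8.28-fold higher. Many signals besides beta-catenin act on these 3 genes. Nkd1, a feedback inhibitor named after its values were seen, was 2.93-fold higher. Its paralogue Nkd2 went the other way and was 1.43-fold lower, at 97.1 ± 1.09 CPM with the BAP1 KO label and 139 ± 4.16 CPM with the WT label. Of 19 planar cell polarity and non-canonical genes, 9 were higher, 9 lower and 1 not called (94.7% called). Nfatc4 was 18.4-fold lower, and the atypical cadherins Celsr1 and Celsr3 were 13.8-fold and 7.34-fold lower. Each gene named from these lists as higher or lower had an edgeR adjusted p of at most 1.67e-05.

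**Figure D5:**
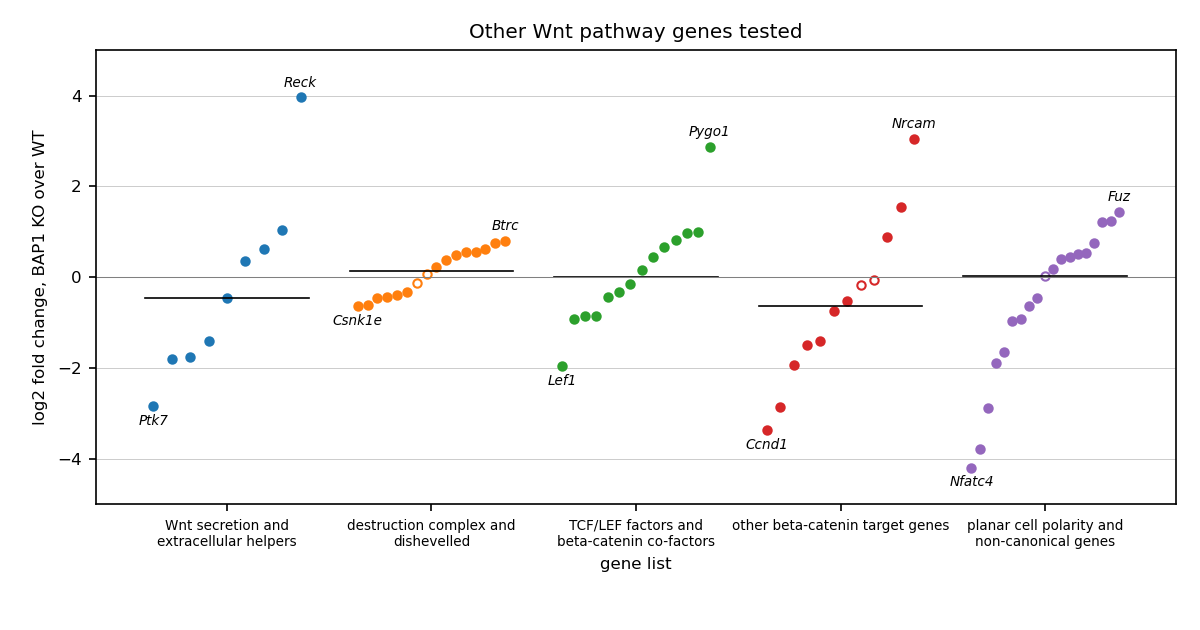
Log2 fold change (y axis, BAP1 KO-labelled libraries over the WT-labelled ones) of the 70 other Wnt pathway genes tested, by list, each list sorted from low to high, with its median as a black line and open circles for the 5 genes not called. The destruction complex genes lie within 2-fold, and the other lists reach from -4.20 (Nfatc4) to 3.97 (Reck).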

How the data were processed

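The 6 libraries were read as single 50-base ends, per the labels' protocols. Per the submitters' processing notes, GSNAP and GRCm38 were used, and for the counter and its annotation the sources used here name none. Per the file headers, the deposited counts are reads aligned uniquely to each gene model, and the deposited RPKM values were adjusted by the authors with a size factor. Counts were used for every test and RPKM only for levels between genes. Gene IDs were matched to RefSeq GRCm38.p6 (31049 of 36528, with 1.09% of the reads unmatched). Members and lists were chosen with earlier results of these data known.

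Genes were kept by filterByExpr (minimum count 10, total 15), scaled with TMM, whose factors ran 0.975 to 1.03, and compared by the quasi-likelihood test of edgeR 4.0.16 in R 4.3.3 without covariates. Each SE is the size of the log2 fold change divided by the root of its F. Values in each library are given for called Wnt genes of the 40 with a mean of 1 CPM or more in the higher group and an absolute log2 fold change of at least 1. They are given besides for Lrp5, Axin2 and Bap1, which fall short of that change. Of each other list, up to 3 called genes with at least 2 CPM are named, by size of change, and Nkd1 and Nkd2 are named besides. Exon overlap is from GENCODE M21. Replicates were numbered by accession and pair nothing, and libraries of 1 label differed beyond counting error in every pair (chi-square over its degrees of freedom, 2.01 to 17.4). The fits were tested on simulated data. Alternatives were other scalings, filters, thresholds, DESeq2 1.42.0, limma-voom (limma 3.58.1), and leaving out each library.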

Additional observations from a re-analysis of the deposited data

How the results depend on the processing

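All 34 Wnt genes tested kept their direction in every alternative that tested them, and 31 were called in each of up to 15 alternatives that kept the threshold of 0.05. The exceptions were Fzd3 (adjusted p 6.54e-06 to 0.0893), Fzd4 (0.0408 to 0.290) and Fzd8 (0.00427 to 0.247). At least 5 CPM in 3 libraries left 25 of the 40 genes in the test, of which 4 were higher and 20 lower. Against a log2 fold change of 1 (edgeR's glmTreat), 2 Wnt genes were higher and 17 lower, 7 and 15 of the other pathway genes, and 1818 and 3417 of all genes, against 6743 higher and 7206 lower of all genes in the main test. Leaving out each library in turn gave 7 to 8 Wnt genes higher and 24 to 25 lower. The counts under these alternatives describe how stable the calls were. They do not set the Wnt genes apart, since 81.5% of all genes were called in the main test. No scaling moved the median of all genes by more than 0.0609. Depth limits the 6 ligands under the count filter. No paired analysis was possible because the labels give no replicate numbers.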
